A study of Mus musculus with 6 samples.

Results

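The collagen chain genes of the mouse esophagus were compared between arrays labelled as lacking Pax9, a transcription factor of the paired-box family, and arrays labelled wild type. Members were all probes with a gene name made of Col, a number, the letter a and a number. Probes of Col7a1 and Col17a1, the collagens of anchoring fibrils and hemidesmosomes, were left out. This rule found 39 genes with 78 probes, among 28104 named genes with 41174 probes on the array. The rule reads names only. 60 of these probes, of 36 genes, were bright enough to be tested, out of 30505 tested probes on the whole array. Each of the 78 kept its name in a table of RefSeq genes.

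Total RNA of adult mice of the C57BL/6J strain was hybridised to 6 two-colour arrays, 3 per group. The knockout group carried the genotype K5Cre;Pax9 loxp/loxp, in which Cre under the keratin 5 promoter recombines floxed Pax9 alleles, and the other group was labelled WT. That promoter is known to be active in basal cells of stratified epithelia, and deletion was not measured here in any cell type. Esophagus RNA was labelled with Cy5 and hybridised against, in Cy3, a commercial reference RNA pooled from 11 mouse cell lines, with no dye swap. All levels below are log2 ratios of esophagus over reference, given in the order of replicates 1, 2 and 3, and all differences are the mean of the arrays labelled knockout minus the mean of those labelled wild type. A log2 ratio compares each probe with itself in the reference, so levels of different probes cannot be ranked against each other, and dye bias can shift a level.

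Collagens are secreted as trimers of chains wound into a triple helix. The helix needs a regular repeat of glycine along each chain, and prolines in it are hydroxylated before secretion. Fibrillar collagens assemble into the cables that give the wall of the esophagus its tensile strength. Collagen IV forms the sheet of the basement membrane under the squamous epithelium and around muscle fibres, collagen VI forms beaded filaments around cells, and the fibril-associated FACIT collagens decorate fibrils. Most of these chains are made by fibroblasts, muscle and vessel cells, while basal epithelial cells contribute to the basement membrane.

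The code of the triple helix can be read in some of the probes. Glycine codons begin with GG, and the repeat puts such a pair every 9 bases. The motif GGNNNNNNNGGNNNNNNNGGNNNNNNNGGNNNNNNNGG, which holds 5 such pairs, was searched on both strands of the 60-base probes. On the printed strand it was found in 3 of 41174 probes, or 0.00729%, and all 3 were collagen probes, 3.85% of the 78. On the other strand it was found in 3 probes, none of them a collagen probe. The matches are printed here from the deposited files, 5′ to 3′, because they show the repeat that defines the family, with the GG pairs of the motif in capitals. Their positions on mouse build mm9 are chr17:34189287-34189453 on the plus strand, chr2:27842243-27844666 on the plus strand and chr9:20590066-20590795 on the minus strand, in that order. Each interval is wider than the probe.
Col11a2: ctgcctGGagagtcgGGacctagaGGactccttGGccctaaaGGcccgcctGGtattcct
Col5a1: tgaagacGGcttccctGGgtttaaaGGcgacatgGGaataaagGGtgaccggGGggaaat
Col5a3: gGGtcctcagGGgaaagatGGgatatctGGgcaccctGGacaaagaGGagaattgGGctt
A match describes the letters of a probe and nothing more.

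Between 52 and 62 of the 78 collagen probes were well above background on each array, against 67.3% to 77.3% of all probes. Of the 18 collagen probes that were not tested, 9 were well above background on no array and 9 on 1 to 3 arrays. Slide 1 held every wild type-labelled array and slide 2 every knockout-labelled array, so slide and group cannot be told apart in any difference below. Read alone, the reference channel carried the same RNA on both slides, and 33 of the 60 collagen probes differed in it between the groups by limma at an adjusted p under 0.05, 14 higher and 19 lower, beside 54.8% of all tested probes. The Pax9 probe read 6.28, 6.13 and 5.70 for the wild type label and 6.81, 6.78 and 6.72 for the knockout label, a difference of 0.73 (SE 0.18, limma adjusted p = 0.071). It was thus not lower where the knockout was labelled. The labels do not say which exons were floxed, and a probe outside the deleted part checks nothing. The labels call the source epithelium, but 9 of 9 skeletal muscle, 6 of 6 smooth muscle and 8 of 8 fibroblast markers were measured on these arrays beside 6 of 6 squamous epithelial markers. In RNA of such a mixture, fewer cells of a type and less RNA per cell cannot be told apart.

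No collagen probe passed the test between the groups. In the limma fit across all tested probes, 0 of 60 collagen probes had an adjusted p under 0.05, where 4.18% of all tested probes did, 2.39% higher and 1.78% lower in the knockout-labelled arrays. At an unadjusted p under 0.05 there were 6 of 60 collagen probes, 3 higher and 3 lower, which is 10% beside 23.3% of all tested probes. The fitted difference was above 0 for 28 collagen probes and below 0 for 32. It ranged from -1.0 for Col9a2 to 1.11 for Col22a1, with a median of -0.02 beside -0.003 for all tested probes. The values of the groups did not overlap for 4 collagen probes higher in the knockout-labelled arrays (6.67%, against 15.5% of all tested probes), which belonged to Col22a1, Col9a1 and Col27a1. They did not overlap for 7 that were lower (11.7%, against 14.9%), of Col9a2, Col9a3, Col2a1, Col8a2, Col23a1, Col12a1 and Col4a6. Neither share was above that of the array as a whole.

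Collagen probes also varied more among arrays of a group than other probes did. The median SD over 3 arrays was 0.33 in the wild type-labelled and 0.41 in the knockout-labelled group for the collagen probes, beside 0.23 and 0.21 for all tested probes. The median SE of a collagen difference was 0.28, against 0.2 for all tested probes. With 3 arrays in each group an exact permutation test reaches p = 0.1 at the lowest, and a p above the threshold does not show that the groups were alike. Every difference is therefore given below with its interval or with the values on each array.

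When the replicate number was entered as a block, limma called 4 collagen probes at an adjusted p under 0.05, beside 7.39% of all tested probes. These were Col4a6 on 1 of its 3 probes, which was lower in the knockout-labelled arrays, and Col14a1, Col22a1 and Col5a3 on 1 of its 2 probes, which were higher. At an unadjusted p under 0.05 the block had 12 of 60 collagen probes, or 20%, beside 27.4% of all tested probes. Over all tested probes, deviations of arrays from their group means correlated at 0.17, 0.51 and 0.34 for numbers 1, 2 and 3. The 0.17 of number 1 was close to the 0.16 between the wild type-labelled array 1 and the knockout-labelled array 3. Over the 60 collagen probes the correlation of these deviations was -0.47 for number 1, 0.64 for number 2 and 0.51 for number 3, and it was also 0.51 between the wild type-labelled array 3 and the knockout-labelled array 1. The pairing thus did not hold for number 1 among the collagens and was weak for it over all tested probes. The labels leave the meaning of the numbers unstated.

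**Figure D1:**
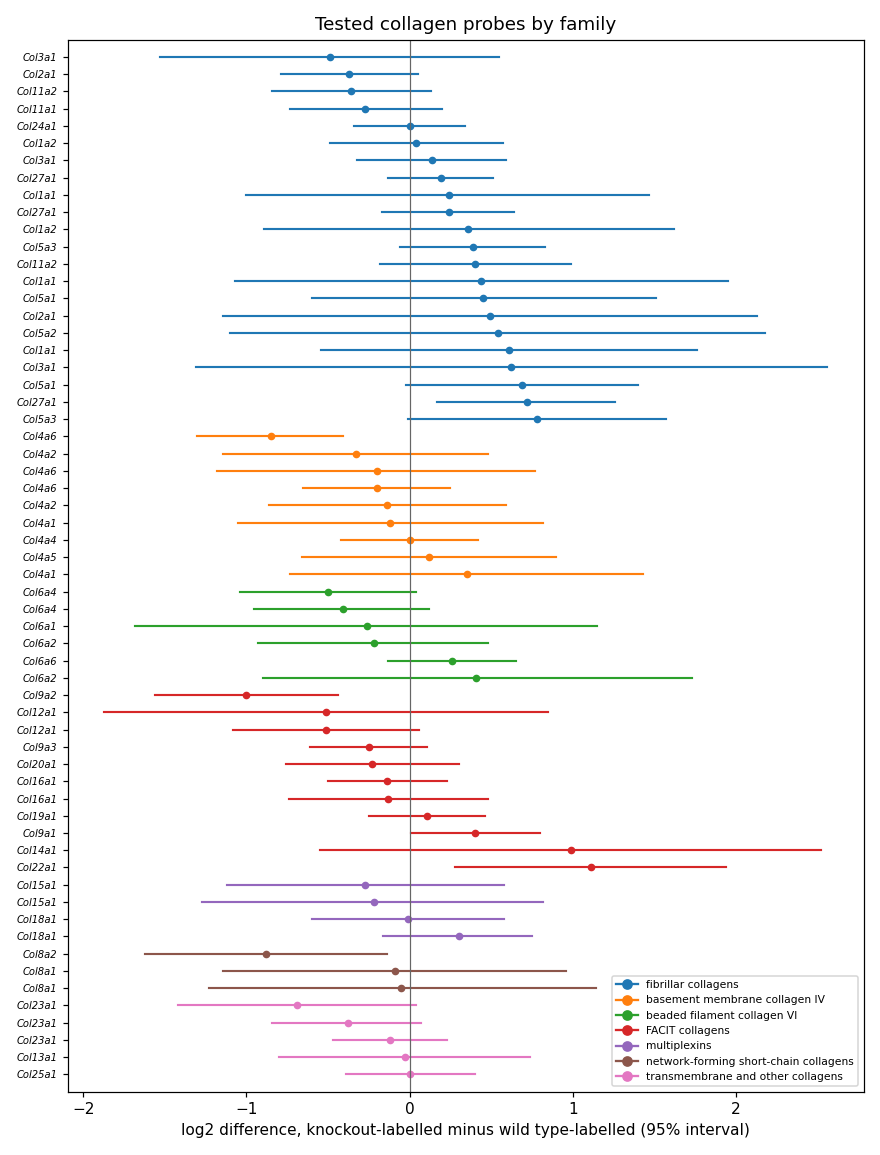
Difference of the knockout-labelled minus the wild type-labelled arrays on the log2 scale (horizontal axis) for each of the 60 tested collagen probes, ordered by family (colours) and by size, with points for the limma estimate and bars for its 95% interval (3 arrays per group). The differences lie between -1.0 and 1.11; the fibrillar chains have 18 of 22 points above 0, and no probe has an adjusted p under 0.05.

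The fibrillar collagens, the cable-forming class, had 22 tested probes of 11 genes. None passed the test, and 18 of 22 differences, or 81.8%, lay above 0, where 49.7% of all tested probes did. Their median difference was 0.38 and their range -0.49 to 0.78. These signs are not independent. Some genes had several of the probes, and 17 of 22 probes were lowest of their group on the knockout-labelled array 2. Of the 22 probes, 16 were well above background on all 6 arrays. Among these 12, or 75%, lay above 0 with a median of 0.42, beside 48.5% of all such probes. The rest entered the test through the knockout-labelled arrays alone. All of the rest counted as above 0, a sign that this filter favours. Without the knockout-labelled array 3, 13 of 22, or 59.1%, were above 0 with a median of 0.06, beside 48.7% of all tested probes. Without the wild type-labelled array 3, 15 of 22, or 68.2%, were above 0 with a median of 0.30, beside 50.1%. The median also fell to 0.15 without the wild type-labelled array 2 and to 0.19 without the knockout-labelled array 1. With median centring in place of loess, 14 of 22, or 63.6%, were above 0 with a median of 0.22, beside 57% of all tested probes.

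Col1a1 and Col1a2 encode the chains of collagen I, the main fibril of most connective tissue. The brightest Col1a1 probe (chr11:94813075-94813134, plus strand, mm9) read -2.33, -2.78 and -1.30 on the wild type-labelled arrays and -1.34, -3.07 and -0.68 on the knockout-labelled arrays. The brightest Col1a2 probe (chr6:4490619-4490678, plus strand) read -1.63, -2.03 and -1.08, and then -0.53, -2.48 and -0.64. In both genes and both groups array 2 was lowest, the esophagus was below the cell-line reference on all 6 arrays, and the groups overlapped. The differences were 0.44 for Col1a1 (95% interval -1.07 to 1.95, adjusted p = 0.72) and 0.36 for Col1a2 (-0.89 to 1.62, adjusted p = 0.72). The other tested Col1a1 probes differed by 0.61 and 0.24. A second Col1a2 probe was not well above background on any wild type-labelled array. In Cy5 it was at least 1.24-fold brighter in the knockout-labelled group. Its Cy3 reference alone was also 0.35 higher there in log2 (limma adjusted p = 0.0031). The fitted difference of its ratio was 0.04 (adjusted p = 0.93).

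Col3a1 encodes the homotrimer of collagen III, which accompanies collagen I in distensible organs. Its brightest probe (chr1:45405589-45405648, plus strand) read -1.15, -1.80 and 0.31 on the wild type-labelled arrays and 0.06, -1.93 and 1.09 on the knockout-labelled arrays. The spread of these values within a group, SD 1.08 and 1.54, was larger than the difference of 0.62 (SE 0.82, adjusted p = 0.69). Of the other tested Col3a1 probes, 1 differed by -0.49 and the other was not well above background on any wild type-labelled array. In Cy5 the latter was at least 1.21-fold brighter in the knockout-labelled group. Its Cy3 reference alone was also 0.23 higher there in log2 (limma adjusted p = 0.019). The fitted difference of its ratio was 0.14 (adjusted p = 0.71). Probes of Col3a1 thus gave both signs, which was so for 6 of the 19 collagen genes with several tested probes.

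Col5a1, Col5a2 and Col5a3 encode chains of collagen V, a minor component that helps set the width of collagen I fibrils. The brightest Col5a1 probe read -2.29, -2.55 and -1.47 on the wild type-labelled and -1.36, -2.57 and -1.01 on the knockout-labelled arrays, a difference of 0.45 (SE 0.45, adjusted p = 0.58). Col5a2 read -2.11, -3.02 and -1.02, and then -0.82, -2.93 and -0.78, a difference of 0.54 (SE 0.70, adjusted p = 0.68). In each of these, array 2 was the lowest of its group. Col5a3 was named because of the block: its brighter probe read -1.54, -1.79 and -0.92 on the wild type-labelled arrays and -0.52, -1.25 and -0.15 on the knockout-labelled arrays. Every knockout-labelled value was above the wild type-labelled value of the same number, while the groups overlapped. The difference of 0.78 had an SE of 0.34 and an adjusted p of 0.22 without the block, and an SE of 0.17 and an adjusted p of 0.045 with it. The Col5a1 and Col5a3 probes whose helix code is printed above differed by 0.69 (adjusted p = 0.22) and 0.39 (adjusted p = 0.27), and that of Col11a2 by -0.36 (adjusted p = 0.35).

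Col27a1 encodes a fibrillar collagen known from cartilage. A probe at chr4:62953608-62953667 (plus strand) read -0.31, 0.04 and 0.09 on the wild type-labelled arrays and 0.82, 0.22 and 0.94 on the knockout-labelled arrays. The groups did not overlap, but the esophagus signal was well above background on only 1 wild type-labelled array and the difference of 0.72 (95% interval 0.17 to 1.26) had an adjusted p of 0.12. The other Col27a1 probes differed by 0.24 and 0.19. Col11a1 and Col11a2, chains of collagen XI in cartilage fibrils, differed by -0.27 on the 1 tested probe of the former and by 0.40 and -0.36 on the pair of the latter. Col24a1, another chain of this class, differed by 0.00, with an interval of -0.34 to 0.34.

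Col2a1, the main fibrillar chain of cartilage, was measured by a pair of probes that share 40 bases and gave opposite signs. They are shown because their overlap lets the same stretch of transcript be read with different probes. A window of 30 bases of each is printed 5′ to 3′, with the 20 bases common to both windows in capitals. The first lies at chr15:97806505-97806564 and the second at chr15:97806485-97806544, both on the minus strand of mm9.
Col2a1 probe A_52_P216436, bases 11 to 40: cccattattgACATCGCACCCATGGACATT
Col2a1 probe A_51_P317141, bases 1 to 30: ACATCGCACCCATGGACATTggaggggctg
The first read 0.60, 0.42 and 0.06 on the wild type-labelled arrays and 0.05, 0.03 and -0.10 on the knockout-labelled arrays, a difference of -0.37 (SE 0.18, adjusted p = 0.26) without overlap of the groups. The second read -0.22, -0.99 and 0.55, and then 0.52, -1.21 and 1.5, a difference of 0.49 (SE 0.69, adjusted p = 0.71) with the groups overlapping. Read alone, the Cy3 reference of the second probe was 1.57 higher on the slide of the knockout-labelled arrays (limma adjusted p = 1.2e-05), and that of the first was 0.18 higher (adjusted p = 0.07). The Cy5 signal alone of the second probe was 2.21 higher there (limma adjusted p = 0.066), and that of the first differed by -0.21 (limma adjusted p = 0.35). The cause of these shifts was not tested. This pair was chosen after its values were seen. Of 6 cartilage markers, 4 (Matn1, Matn3, Hapln1 and Cnmd) were not bright enough to be tested, and Acan and Comp summed to a Cy5 signal of 351 to 896 on the wild type-labelled and 286 to 403 on the knockout-labelled arrays.

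**Figure D2:**
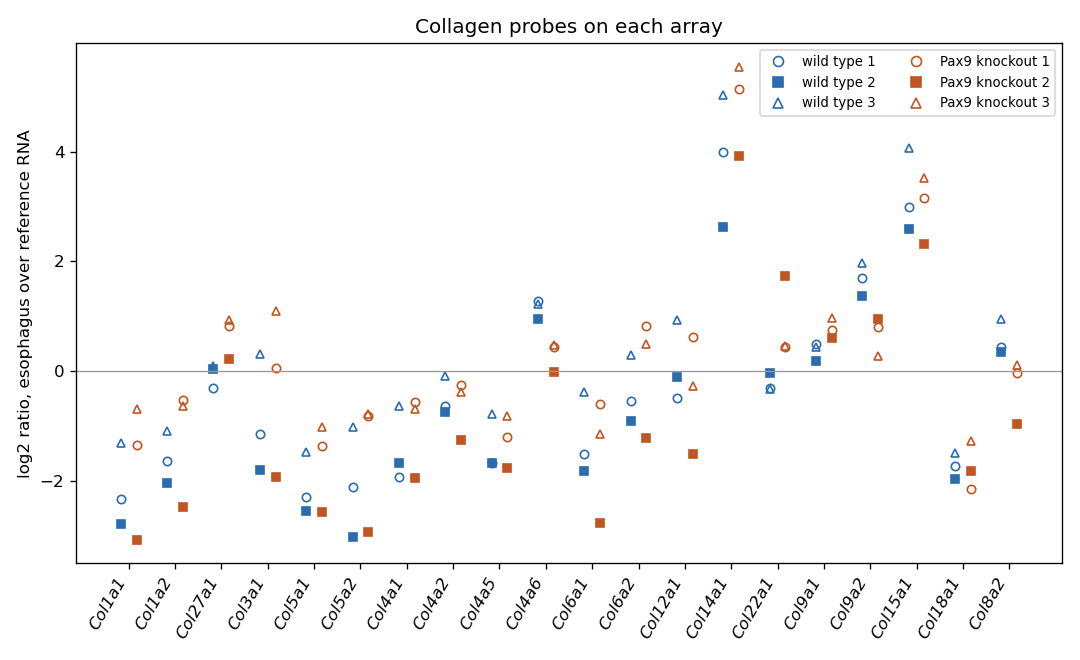
Log2 ratio of esophagus over reference RNA (vertical axis) for 20 named collagen probes on each of the 6 arrays, blue for wild type-labelled and orange for knockout-labelled, with circles, squares and triangles for replicates 1, 2 and 3. In Col1a1, Col1a2, Col3a1 and Col5a2 the filled squares of replicate 2 lie lowest in both groups. The groups of Col4a6, Col9a2 and Col8a2 do not overlap and lie lower in the knockout-labelled arrays. Those of Col22a1, Col9a1 and Col27a1 do not overlap either and lie higher there.

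Collagen IV, the basement membrane network, had 9 tested probes of 5 genes, with 7 differences below 0 and a median of -0.14. That direction depended on single arrays in both groups and on the scaling. Without the knockout-labelled array 2, 7 of 9 were above 0 with a median of 0.12, and without the wild type-labelled array 3, 5 of 9 were. The count was 5 of 9 with array weights, 4 of 9 in the authors' deposited log ratios, and 6 of 9 with median centring, under which 57% of all tested probes lay above 0. Col4a3, a chain best known from the kidney glomerulus, had no probe bright enough to be tested.

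Col4a6 encodes a chain that pairs with that of Col4a5 in basement membranes of stratified epithelia and smooth muscle. Its 3 tested probes lay within a short stretch of chromosome X and gave different results. The first 30 bases of each are printed so that the probe behind each value can be told apart. They lie on the minus strand of mm9 at chrX:137599990-137600049, chrX:137601433-137601491 and chrX:137600816-137600875.
Col4a6 probe A_52_P516409: ggcaaagcataacaagtacattctgagctc
Col4a6 probe A_52_P447196: cagtccctaatctcccctggctcgtgtctt
Col4a6 probe A_51_P109326: aggatttccaccctaaaaatacgtttctgg
The first read 1.28, 0.95 and 1.22 on the wild type-labelled arrays and 0.44, -0.02 and 0.47 on the knockout-labelled arrays. All knockout-labelled values lay below all wild type-labelled values, and the difference of -0.85 (SE 0.19, 95% interval -1.30 to -0.41) had the smallest adjusted p among the collagen probes, 0.054 by limma. It passed with the replicate block, at an SE of 0.16 and an adjusted p of 0.029. The second probe read 0.96, 1.37 and 1.37, and then 1.25, 0.80 and 1.05, and differed by -0.20 (SE 0.19, adjusted p = 0.56). The third read -0.06, -0.16 and 1.09, and then 0.60, -0.56 and 0.21, and also differed by -0.20 (SE 0.41, adjusted p = 0.81). Only the first of these probes separated the groups. Of the 6 squamous markers (Krt5, Krt14, Krt4, Krt13, Trp63 and Sprr3), 0 passed the test, with summed Cy5 signals of 1420000 to 1960000 and 1240000 to 1960000. Their part in the Col4a6 values was not tested.

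Col4a1 and Col4a2 encode the chains found in nearly all basement membranes. The brightest Col4a1 probe read -1.93, -1.67 and -0.64 on the wild type-labelled and -0.56, -1.94 and -0.69 on the knockout-labelled arrays, a difference of 0.35 (95% interval -0.73 to 1.43, adjusted p = 0.69). Col4a2 read -0.63, -0.74 and -0.08, and then -0.25, -1.25 and -0.37, a difference of -0.14 (-0.86 to 0.59, adjusted p = 0.83). Neither gene separated the groups, and the second tested probes of Col4a1 and Col4a2 differed by -0.12 and -0.33. Col4a5 read -1.67, -1.68 and -0.78, and then -1.20, -1.77 and -0.81, a difference of 0.12 (-0.66 to 0.90, adjusted p = 0.86). Col4a4, a partner of Col4a3 and Col4a5, differed by 0.00 in its ratio (-0.42 to 0.42). Its Cy5 signal alone was 1.09 higher (adjusted p = 0.009) and its Cy3 reference alone was 0.99 higher (adjusted p = 3e-04), so a difference present in Cy5 was not present in the ratio. In Cy5 alone 26.9% of all tested probes passed.

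Collagen VI, the beaded filament around cells, had 6 tested probes of 4 genes, with 4 differences below 0 and a median of -0.24. Without the knockout-labelled array 2, 4 of 6 were above 0 with a median of 0.17, and without the wild type-labelled array 3 the median was 0.03. With array weights 4 of 6 were above 0 (median 0.09), and in the deposited log ratios 3 of 6 were (median -0.08). No tested probe carried the name Col6a3. Col6a1 read -1.51, -1.82 and -0.38 on the wild type-labelled arrays and -0.59, -2.76 and -1.15 on the knockout-labelled arrays, a difference of -0.26 (SE 0.60, adjusted p = 0.83). The brightest Col6a2 probe read -0.55, -0.90 and 0.30, and then 0.82, -1.22 and 0.50, a difference of 0.41 (SE 0.56, adjusted p = 0.70), while its second probe differed by -0.22. These chains are made together in a heterotrimer, and in both array 2 was the lowest of its group. Both Col6a4 probes were below 0, at -0.50 (adjusted p = 0.25) and -0.41 (adjusted p = 0.32). Col6a6 was not well above background on any wild type-labelled array. In Cy5 it was at least 1.35-fold brighter in the knockout-labelled group. Its Cy3 reference alone was also 0.42 higher there in log2 (limma adjusted p = 0.00048). The fitted difference of its ratio was 0.26 (adjusted p = 0.38).

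The FACIT collagens held the extremes in both directions among 11 tested probes of 9 genes, 4 above 0 and 7 below. Col9a1, Col9a2 and Col9a3 encode the chains of collagen IX, which coats collagen II fibrils in cartilage. Col9a2 (chr4:120727698-120727757, plus strand) read 1.70, 1.37 and 1.98 on the wild type-labelled arrays and 0.80, 0.96 and 0.28 on the knockout-labelled arrays. The groups did not overlap, and the difference of -1.0 (95% interval -1.56 to -0.44) had an adjusted p of 0.064 by limma. Col9a1 lay the other way without overlap, reading 0.50, 0.18 and 0.44 and then 0.76, 0.60 and 0.97, a difference of 0.40 (0.01 to 0.80, adjusted p = 0.21). Col9a3 was well above background on only 1 knockout-labelled array and differed by -0.25 (adjusted p = 0.37). The partners of the collagen IX trimer thus had differences of both signs, none of which passed the test. The cartilage markers given above for Col2a1 apply here too, and their part was not tested.

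Col22a1 encodes a FACIT collagen of tissue junctions, best known where muscle meets tendon. It read -0.31, -0.04 and -0.33 on the wild type-labelled arrays and 0.45, 1.74 and 0.46 on the knockout-labelled arrays. All knockout-labelled values were above all wild type-labelled ones, with replicate 2 the highest of both groups, and 2 of 3 wild type-labelled arrays were well above background. The difference of 1.11 (95% interval 0.28 to 1.94) had an adjusted p of 0.12, and of 0.044 with the replicate block (SE 0.24). It was 0.68 without the knockout-labelled array 2 and 0.45 with median centring. Skeletal muscle markers were read alongside, and their summed Cy5 signal was 76500, 738000 and 78300 on the wild type-labelled and 270000, 1520000 and 270000 on the knockout-labelled arrays, highest on array 2 of each group. Of the 9 (Acta1, Ckm, Mb, Tnnt3, Tnni2, Myh1, Myh2, Myh4 and Des), only Myh2, a fast myosin heavy chain, passed the test without the block and rose by 1.63 (SE 0.32, limma adjusted p = 0.04, and 0.013 with the block). With the block Tnnt3, a fast troponin, passed too, at 1.28 (adjusted p = 0.47 without it and 0.045 with it). Their part in the Col22a1 values was not tested.

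Col14a1 and Col12a1 encode FACIT chains that bind collagen I fibrils. Col14a1 stood far above the reference on every array, at 4.0, 2.63 and 5.04 on the wild type-labelled and 5.15, 3.93 and 5.55 on the knockout-labelled arrays. Each knockout-labelled value exceeded its wild type-labelled counterpart of the same number, and the groups overlapped. The difference of 0.99 had an SE of 0.65 and an adjusted p of 0.40 without the block, and an SE of 0.20 and an adjusted p of 0.039 with it. It was 0.35 without the wild type-labelled array 2, up to 1.56 on leaving out another array, and 0.59 in the deposited log ratios. The brightest Col12a1 probe read -0.48, -0.10 and 0.94, and then 0.63, -1.51 and -0.27, a difference of -0.51 (SE 0.58, adjusted p = 0.64), and the second Col12a1 probe also differed by -0.51 (SE 0.24, adjusted p = 0.26) with the groups apart. Col16a1, Col19a1 and Col20a1, further members of the class, differed by -0.23 to 0.11 over 4 probes.

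The multiplexins Col15a1 and Col18a1 sit in the zone next to basement membranes, and Col18a1 is the precursor of endostatin. Col15a1 was high against the reference on every array, at 3.00, 2.60 and 4.07 and then 3.16, 2.31 and 3.53, a difference of -0.22 (95% interval -1.27 to 0.82, adjusted p = 0.80). Col18a1 was below the reference on every array, at -1.72, -1.97 and -1.49 and then -2.14, -1.81 and -1.27, a difference of -0.01 (-0.60 to 0.58, adjusted p = 0.99). In neither gene were the groups apart. The second probes of Col15a1 and Col18a1 differed by -0.27 and 0.30.

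Col8a1 and Col8a2 encode short-chain collagens that form hexagonal sheets under endothelium. Col8a2 (chr4:125991441-125991500, plus strand) read 0.44, 0.35 and 0.96 on the wild type-labelled arrays and -0.04, -0.96 and 0.11 on the knockout-labelled arrays. These groups did not overlap, and the difference of -0.88 (95% interval -1.62 to -0.14) had an adjusted p of 0.16. Its partner Col8a1 differed by -0.09 and -0.05 on its 2 probes, with intervals reaching from -1.23 to 1.14. Endothelial markers were measured for 6 of 6 genes, with sums of 3650 to 6150 and 4210 to 6450. Without the block 0 passed the test, and with it 2 did: Kdr, a receptor for vascular growth factor, at 0.96 (adjusted p = 0.14, and 0.028 with the block), and Cldn5, a tight junction protein, at 1.06 (0.095, and 0.035 with the block). Their part in the Col8a2 values was not tested. Col10a1, the collagen of hypertrophic cartilage, was not bright enough to be tested.

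The transmembrane collagens Col13a1, Col23a1 and Col25a1, which stay anchored in the cell membrane, were above the reference on all 6 arrays on each of their 5 tested probes. Col13a1, a collagen of the neuromuscular junction, differed by -0.03 (95% interval -0.80 to 0.74). Col25a1, needed for motor innervation of muscle, differed by 0.00 (-0.39 to 0.40). The 3 Col23a1 probes differed by -0.12, -0.38 and -0.69, with adjusted p-values of 0.66, 0.29 and 0.24. Col28a1, a collagen of peripheral nerve, was not bright enough to be tested.

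Against the cell-line reference, collagens of most classes lay on either side. Of the 60 tested probes, 28, or 46.7%, were below the reference on all 6 arrays, where 29.4% of all tested probes were. 15 probes, or 25%, were above it on all 6, against 35.3% of all, and 17 lay on both sides. The probes below on all 6 arrays were 12 of 22 fibrillar, 5 of 9 collagen IV, 3 of 6 collagen VI, 2 of 3 short-chain, 4 of 11 FACIT, 2 of 4 multiplexin and 0 of 5 transmembrane probes. Those above were 1, 2, 1, 0, 4, 2 and 5, in the same order. Differences between classes were not tested. The wild type and knockout labels had no part in this, and dye bias was not tested because no dyes were swapped.

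The lowest collagen values tended to lie on array 2 of each group. That array was the lowest of the wild type-labelled group for 32 of 60 collagen probes, or 53.3%, where it was for 34.9% of all tested probes. In the knockout-labelled group it was lowest for 45 of 60, or 75%, against 43% of all, and in both groups at once for 26, or 43.3%, against 19.5%. All 9 collagen IV probes and 17 of 22 fibrillar probes were lowest on the knockout-labelled array 2. The mean log2 ratio of the fibrillar chains was -0.69, -0.91 and -0.58 on the wild type-labelled arrays and -0.25, -1.08 and -0.05 on the knockout-labelled arrays. For collagen VI it was -0.26, -0.48 and -0.06, and then -0.02, -0.91 and -0.23. In each class array 2 was lowest in both groups.

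Markers of other cells differed between these arrays as well. The 8 fibroblast markers (Pdgfra, Dpt, Lum, Dcn, Thy1, Mfap5, Pi16 and Clec3b), none of which passed the test without the block, averaged 2.19, 1.16 and 2.53 and then 2.45, 1.38 and 2.65 in log2 ratio, lowest on array 2 of each group as the fibrillar collagens were. Mfap5, a microfibril protein, differed by 1.26, with an adjusted p of 0.32, and of 0.015 with the replicate block. The summed Cy5 signal of the list was 97700 to 251000 in the wild type-labelled and 142000 to 253000 in the knockout-labelled group. The skeletal muscle markers averaged 3.59, 5.44 and 3.65 and then 5.01, 5.53 and 4.75, highest on array 2 of each group. The 6 smooth muscle markers, with 0 past the test, summed to 96400 to 360000 and 126000 to 342000. Among Schwann cell markers 5 of 5 and among adipocyte markers 3 of 4 were measured, with 0 past the test in either list, and the Schwann mean was highest on the knockout-labelled array 2, at 2.53. The part of these cells in the collagen values was not tested.

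**Figure D3:**
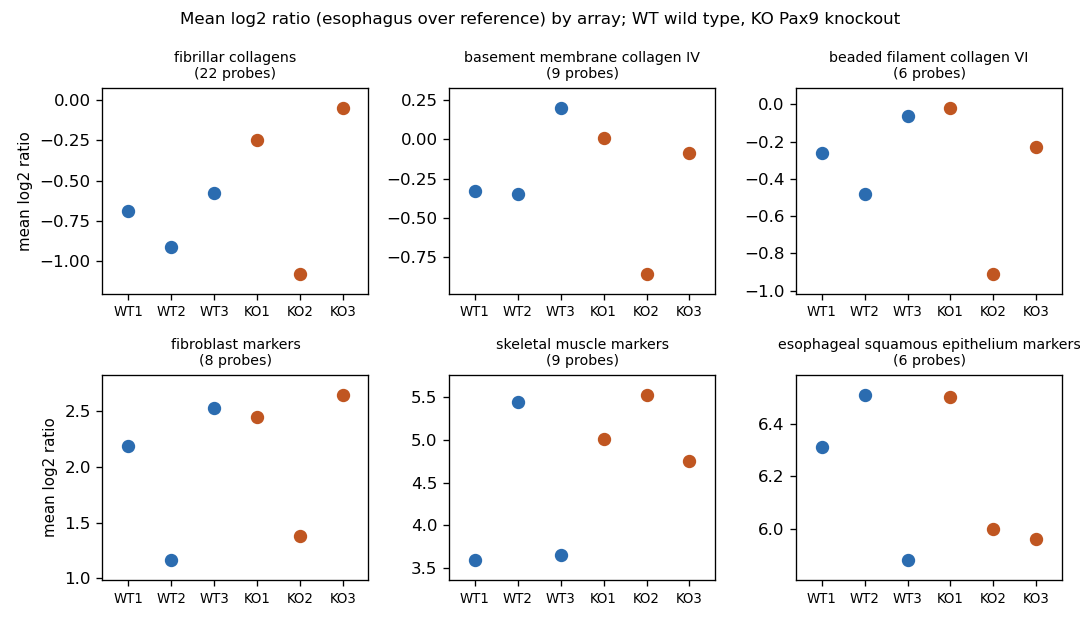
Mean log2 ratio of esophagus over reference (vertical axes, each panel with its own scale) on the 6 arrays (WT wild type-labelled, blue; KO knockout-labelled, orange; the number is the replicate) for 3 collagen classes in the upper row and 3 marker lists in the lower row. Array 2 is lowest of its group for the fibrillar collagens, at -0.91 and -1.08, and for the fibroblast markers, at 1.16 and 1.38, and highest for the skeletal muscle markers, at 5.44 and 5.53.

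The genes that make, process and bind collagen were read from lists, each gene by its brightest tested probe, and 1 gene passed the test. At the gene level 4.84% of 20820 genes had a limma adjusted p under 0.05. Of the enzymes and chaperones that hydroxylate and fold procollagen, 19 of 20 were tested and 0 passed, with a median difference of 0.14. Tmem38b, an ion channel of the endoplasmic reticulum, read 0.01, -0.05 and 0.10, and then 0.47, 1.19 and 0.49, a difference of 0.69 (adjusted p = 0.12). P4ha2, a catalytic subunit of prolyl hydroxylase, differed by -0.82 (SE 0.26, adjusted p = 0.12), and P4hb, its partner subunit, by 0.46 (SE 0.18, adjusted p = 0.18). Each of these separated the groups without passing.

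Of the proteases and lysyl oxidases that trim and crosslink fibrils, 11 of 13 were tested and 0 passed, with a median of 0.12. Loxl1, a lysyl oxidase that acts on elastin, differed by 0.74 (adjusted p = 0.24), and Lox by 0.46 (adjusted p = 0.37). Loxl2 differed by 0.66 (limma adjusted p = 0.47) and Adamts3 by 0.24 (limma adjusted p = 0.45). Of the collagen receptors 8 of 10 were tested and 0 passed, with a median of -0.04. Ddr1, a collagen-binding receptor kinase of epithelia, differed by -0.57 (adjusted p = 0.16), and Itga1 and Itgb1, subunits of a collagen-binding integrin, by -0.30 and 0.30. Mrc2 of the same list differed by 0.38 (limma adjusted p = 0.33).

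Among 22 matrix partners of the fibrils, all tested, 1 rose and 0 fell, with a median of 0.13. The gene that passed was Eln, which encodes elastin, the rubber-like fibre of the wall. It read 1.37, 1.39 and 1.74 on the wild type-labelled arrays and 2.86, 2.20 and 2.85 on the knockout-labelled arrays. The groups did not overlap, and Eln rose by 1.14 (SE 0.23, limma adjusted p = 0.043; 0.022 with the replicate block). This call was lost in the deposited log ratios, where the difference was 0.79 (adjusted p = 0.19), with median centring (adjusted p = 0.14) and on leaving out any array other than the knockout-labelled array 2 (adjusted p up to 0.17). Bgn, the small proteoglycan biglycan, read 0.31, 0.22 and -0.82, and then -0.89, -1.66 and -1.48, a difference of -1.24 (SE 0.35) with an adjusted p of 0.09, and of 0.035 with the replicate block. The thrombospondins Thbs1 and Thbs2, which bind collagen and cells, differed by -1.07 (adjusted p = 0.083) and -0.63 (adjusted p = 0.066), with the groups apart. No list member besides Eln and Bgn passed with or without the block.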

How the data were processed

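The authors deposited scanner files with linear intensity values and a log10 ratio of Cy5 over Cy3, made with Agilent Feature Extraction 10.7.3.1 per the file headers and 9.1 per the submitters' processing notes. The series matrix, deposited as log2 values, correlated at -0.993 to -0.996 with the scanner log2 ratios, so it is Cy3 over Cy5, with column medians of -0.02 to 0.01 and its centring is unstated. Here the intensity columns were background-corrected by normexp (offset 50) and normalized by loess within each array, giving control spots no weight. Outlier spots, 55 to 164 per array and none of a collagen probe, were left missing; 0 spots were saturated. Testing required a Cy5 signal clearly over background (the flag of the scanner files) on each of the 3 arrays of at least 1 group. Differences were fitted in R 4.3.3 with lmFit and eBayes of limma 3.58.1 and tested on both sides, with p-values adjusted by Benjamini-Hochberg over tested probes and a threshold of 0.05. Replicates are labelled biological with no word on animals, so p-values measure only the spread between these samples, and the number of arrays limits the precision. A bound is the bright group's mean over the dim group's mean of the larger, on each array, of its own signal and the dimmest signal well above background, in Cy5 after Aquantile, and open to dye bias.

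Replicate numbers are shared by the groups. Deviations from group means correlated at 0.17, 0.51 and 0.34 between arrays of the same number over tested probes, and at -0.49 to 0.16 otherwise, so by rule the numbers pair the arrays. For number 1 the margin was slight. On each slide they lay at positions 2, 3 and 4, so a block takes out position too.

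Collagens were named if they passed the test, were among the 3 smallest p-values in a direction, or were among 16 major chains, each by its brightest probe; others are given by class. From partner lists, genes past the test and the 3 with the smallest p in each list were named. Bgn was named for its result with the block, and Loxl2 and Itga1 were named outside this rule. The members, lists and genes were chosen with earlier results of these data known. Alternatives covered background correction, normalization, the deposited ratios, Cy5 alone, filters, the variance model, a replicate block, averaged probes and each array left out. Names were looked up in RefSeq genes of GRCm38.p6, which held the accession of 26918 probes and the name or a synonym of a further 5899, while 8357 kept the name in the files. Positions are those of the files, on mm9. The procedure was tested on simulated data.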

Additional observations from a re-analysis of the deposited data

How the results depend on the processing

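The count of 0 collagen probes past the threshold in either direction held in all alternatives but 3. The replicate block called 3 higher and 1 lower (Col4a6 at -0.85), array weights called 2 higher (Col27a1, Col5a3) and 2 lower (Col9a2, Col4a6), and Cy5 alone called 3 higher (Col4a4, Col22a1, Col27a1) and 6 lower (Col9a2, Col4a6 on 2 probes, Col23a1, Col6a4, Col8a2). Each number occurs once in each group, so the block cannot change a difference, only its SE and p. It changed no other collagen call. Over all tested probes the count of 1274 became 727 in the deposited log ratios, 714 in the series matrix, 139 with median centring, 8204 in Cy5 alone, 699 for probes well above background on all 6 arrays, 3894 with array weights, 2254 with the replicate block, 396 without both arrays numbered 2 (an alternative chosen after seeing the data), and 38 to 1111 on leaving out 1 array. Leaving out an array also leaves fewer samples. The cause of the other shifts was not tested.

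Among the partner lists the count of 1 became 2 with the block, 5 with array weights and 11 in Cy5 alone. Of all tested probes 7.39%, 12.8% and 26.9% were called in these settings, against 4.18% in the main fit. It became 0 with background-subtracted signals (Eln adjusted p = 0.053), deposited log ratios, the series matrix, median centring, all 6 arrays above background (0.05) and both arrays numbered 2 left out (0.056), and was 0 to 1 on leaving out 1 array. Except for the block, these counts over the partner lists were added after seeing the data.

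The median collagen difference ranged from -0.13 to 0.18 over the alternatives, so it took both signs. Of 398 alternative values for the named collagens, 34 turned in sign, all in 9 genes with adjusted p-values of 0.64 or more. Many of the 398 could not turn. The filters, the intensity trend in the variance, Aquantile and the block leave the difference of a probe unchanged. Deposited log ratios and the series matrix also repeat each other, so the count overstates how stable the signs were. Deposited log ratios and the series matrix gave 0.07 for Col15a1, 0.07 for Col18a1, 0.11 for Col4a2 and 0.05 for Col6a1. Median centring gave 0.29 for Col18a1, 0.09 for Col4a2 and 0.04 for Col6a1. Array weights gave 0.23, 0.26, 0.10 and 0.14 for Col15a1, Col18a1, Col4a2 and Col6a1. Averaged probes gave 0.14 for Col18a1, Cy5 alone gave -0.07 for Col4a1, and both arrays numbered 2 left out gave 0.05 for Col4a2 and 0.07 for Col6a1. On leaving out 1 array the ranges were -1.02 to 0.05 for Col12a1, -0.54 to 0.20 for Col15a1, -0.24 to 0.19 for Col18a1, -0.07 to 1.13 for Col1a1, -0.05 to 1.46 for Col3a1, -0.32 to 0.18 for Col4a2, -0.11 to 0.41 for Col4a5 and -0.72 to 0.37 for Col6a1. For Col4a6 the range was -0.95 to -0.70 (adjusted p 0.091 to 0.16), for Col9a2 -1.16 to -0.80 (0.075 to 0.21), for Col22a1 0.68 to 1.32 (0.099 to 0.27) and for Col14a1 0.35 to 1.56 (0.18 to 0.74).

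With 3 arrays a group, differences far larger than the median SE of 0.28 could fail the test. Col9a2 at -1.0 (SE 0.24) and Col22a1 at 1.11 (SE 0.35) did not pass, with limma adjusted p-values of 0.064 and 0.12. Signals of the 18 untested probes were too near background for a comparison.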
